A study of Homo sapiens with 8 samples.

Results

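The peaks described here are N1-methyladenosine (m1A) peaks that the authors listed on long noncoding RNA (lncRNA) transcripts annotated as natural antisense to a coding gene. They were taken as every row of the 4 deposited lncRNA peak lists whose relationship was natural antisense, with each peak counted once per list. This gave 922 of 8011 lncRNA peaks, and of 28510 peaks when the 20499 mRNA peaks are included. The study profiled RNA of 5637 cells, a human bladder carcinoma line, with TRMT61A stably knocked down or not, by m1A immunoprecipitation and sequencing of the matched input RNA. There were 2 control samples, labelled wild type, and 2 TRMT61A knockdown samples, each with an immunoprecipitated and an input library, and all 4 were of this 1 line. Nothing in the labels says whether the 2 samples of a group came from separate cultures, so the tests measure the spread between these samples only.

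N1-methyladenosine carries a methyl group on the base-pairing face of adenine and stalls reverse transcription. In cytosolic tRNA it is written in the T loop by the complex of TRMT6 and TRMT61A, the latter being the catalytic subunit. The same complex is known to methylate other RNAs at a T-loop-like GUUCNA context. A natural antisense transcript is read from the strand opposite to a coding gene that it overlaps. Depending on the arrangement it shares with its partner the region around the start (head to head), the region around the end (tail to tail), or lies wholly inside the partner.

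In the input libraries TRMT61A was at 19.8 and 14.7 CPM (counts scaled by edgeR's effective library size) in control 1 and 2, and at 13.4 and 6.71 in knockdown 1 and 2. Both knockdown inputs were below both controls, and the knockdown mean was 0.583 of the control mean. TRMT6, its partner subunit, was at 63.4, 56.4, 65.5 and 57.2 CPM in the same order. The inputs held 30046283 to 42177927 counts on coding genes and 1727826 to 2304288 on lncRNA transcripts. All 10 urothelial and epithelial markers looked up were present, from GATA3 at 40.1 to 51.4 CPM to KRT19 at 1016 to 1144 CPM. Of 6 markers of other cell types, PTPRC, CD14 and PECAM1 were under 1 CPM in every input. VWF, an endothelial gene, was at 0.567 to 1.77 CPM and DCN, a stromal gene, at 0 to 1.06. COL1A1, a collagen gene of stromal cells, was at 32.5 and 34.1 CPM in the controls and 27.8 and 39.5 in the knockdown. Depth was known for the inputs only; for the immunoprecipitated libraries it was not given.

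Of the 38 natural antisense regions that all 4 samples listed, several ran across the start of the coding partner, so the stretch of genome that both transcripts share can be shown. The 5 windows that follow are RefSeq promoter windows on GRCh38.p14 (250 bases before to 50 after a gene's start), written 5′ to 3′ on the strand of the named gene. Capitals mark the bases inside the m1A region. The OR1F1 window is shown because it holds the first 42 bases of the region with the highest fold as well as a tRNA gene. The others are examples in which the region of the antisense transcript covered the partner's start. Not every such window is printed: those of TPM4, under a region of higher mean fold than the SEC63, PEA15 and ARIH1 regions, are left out.
OR1F1 window, chr16:3187954-3188253, + strand, under AJ003147.2: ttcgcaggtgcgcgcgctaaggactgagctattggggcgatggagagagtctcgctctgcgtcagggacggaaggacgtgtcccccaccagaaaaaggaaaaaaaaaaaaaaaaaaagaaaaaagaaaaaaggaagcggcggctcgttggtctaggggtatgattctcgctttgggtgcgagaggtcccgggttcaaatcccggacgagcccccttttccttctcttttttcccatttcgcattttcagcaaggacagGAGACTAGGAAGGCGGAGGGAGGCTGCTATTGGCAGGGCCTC
HNRNPM window, chr19:8444725-8445024, + strand, under AC136469.2: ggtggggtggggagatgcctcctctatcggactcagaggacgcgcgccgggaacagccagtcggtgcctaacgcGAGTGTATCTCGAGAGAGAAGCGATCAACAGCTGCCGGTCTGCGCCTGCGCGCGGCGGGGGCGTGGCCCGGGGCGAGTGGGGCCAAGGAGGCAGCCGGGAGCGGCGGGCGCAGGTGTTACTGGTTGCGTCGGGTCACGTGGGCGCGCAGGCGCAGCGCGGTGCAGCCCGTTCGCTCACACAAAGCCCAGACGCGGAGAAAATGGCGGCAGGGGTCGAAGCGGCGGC
SEC63 window, chr6:107958159-107958458, - strand, under AL024507.2: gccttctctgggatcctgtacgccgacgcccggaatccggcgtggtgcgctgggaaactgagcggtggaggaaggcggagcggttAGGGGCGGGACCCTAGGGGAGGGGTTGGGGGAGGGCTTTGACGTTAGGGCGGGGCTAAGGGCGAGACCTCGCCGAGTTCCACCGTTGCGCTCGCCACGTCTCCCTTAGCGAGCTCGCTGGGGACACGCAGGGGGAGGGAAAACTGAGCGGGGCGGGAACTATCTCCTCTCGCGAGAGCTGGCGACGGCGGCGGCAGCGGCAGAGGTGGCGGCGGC
PEA15 window, chr1:160205134-160205433, + strand, under AL121987.2: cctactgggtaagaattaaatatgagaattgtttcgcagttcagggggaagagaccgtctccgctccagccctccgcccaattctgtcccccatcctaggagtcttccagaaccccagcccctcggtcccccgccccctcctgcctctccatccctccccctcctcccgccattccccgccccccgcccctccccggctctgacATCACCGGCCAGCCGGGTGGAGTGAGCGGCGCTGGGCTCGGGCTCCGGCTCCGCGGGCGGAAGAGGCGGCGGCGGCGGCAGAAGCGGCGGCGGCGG
ARIH1 window, chr15:72474080-72474379, + strand, under TMEM202-AS1: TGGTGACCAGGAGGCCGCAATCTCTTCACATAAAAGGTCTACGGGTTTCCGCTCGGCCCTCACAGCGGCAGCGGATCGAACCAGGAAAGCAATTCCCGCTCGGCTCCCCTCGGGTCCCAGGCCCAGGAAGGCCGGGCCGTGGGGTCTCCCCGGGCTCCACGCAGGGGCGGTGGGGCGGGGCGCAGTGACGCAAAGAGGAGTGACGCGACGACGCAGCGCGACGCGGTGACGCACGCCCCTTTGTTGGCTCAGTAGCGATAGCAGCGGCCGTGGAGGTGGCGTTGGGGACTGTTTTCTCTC

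The motif GTTCNA, the DNA form of the T-loop context, was searched on both strands of these windows. In the OR1F1 window it occurred as GTTCAA at positions 3188145 to 3188150 of chromosome 16. That is inside the proline tRNA gene TRP-TGG3-5 (3188094 to 3188165) and 62 bases before the m1A region. In the SEC63 window it occurred as GTTCCA on the minus strand (107958293 to 107958298), and in the ARIH1 window as GTTCGA on the minus strand (72474155 to 72474160). Both matches lie inside their regions, but only the ARIH1 match is on the strand of the antisense host. The SEC63 match is on the strand opposite to AL024507.2 and lies before the SEC63 start used for the window. The HNRNPM and PEA15 windows held no match. Of the windows read but not printed, those of TES, SGO1, CCBE1 and TAX1BP1 held a match, in TAX1BP1 outside the region. The rest, with those of TPM4, held none. Over all promoter windows that a natural antisense region overlapped, 19.1% of 309 held the motif on either strand. The share was 17.5% of 5904 windows under any m1A peak and 25.8% of all 34943 windows. The base composition of these sets differed, with a median GC content of 67%, 69% and 58.7%. A match describes letters in a window and does not place a methylated base.

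The samples listed 300 natural antisense peaks in control 1 and 201 in control 2, against 258 in knockdown 1 and 163 in knockdown 2. The means were 250.5 ± 70.0 (SD, n = 2) in the controls and 210.5 ± 67.2 (SD, n = 2) in the knockdown, a ratio of 0.840. This difference was smaller than the spread within a group (two-sided exact permutation test, p = 0.667, where 2 against 2 samples cannot go below 0.333). The first replicate held 1.49 times as many peaks as the second in the controls and 1.58 times as many in the knockdown. Between same-numbered samples the knockdown held 0.86 and 0.811 times as many peaks as the control. Leaving out control 1 or knockdown 2 turned the ratio to 1.05 and 1.03, but leaves the replicate numbers unbalanced between the groups. As a share of all lncRNA peaks of a sample, natural antisense peaks made up 11.6% and 11.9% in the controls and 11.0% and 11.8% in the knockdown (two-sided exact permutation test, p = 0.667).

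**Figure D1:**
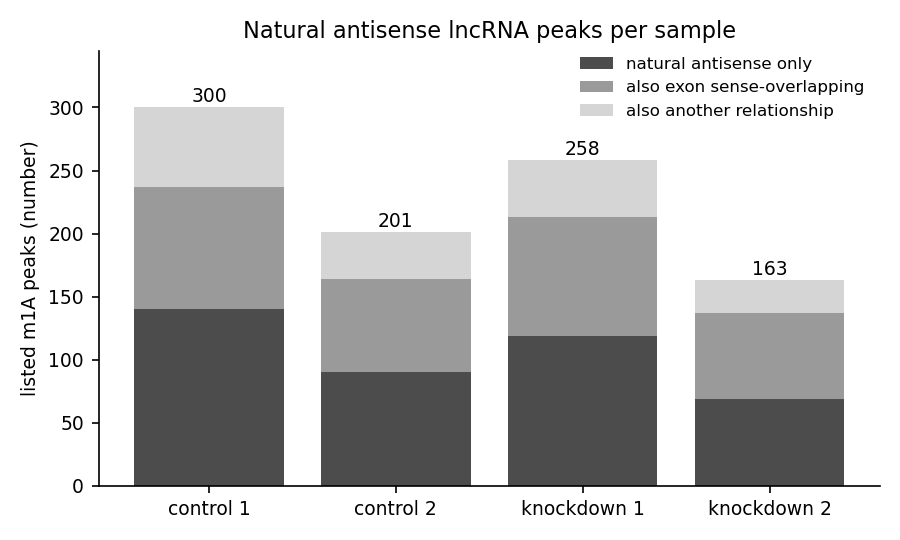
Number of listed natural antisense m1A peaks in each of the 4 samples, split by whether the same peak carries a further relationship in the lists. The first replicate stands above the second in both groups (300 against 201 and 258 against 163).

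The class was mixed. Only 418 of the 922 peaks (45.3%) carried no other relationship, and 333 (36.1%) were also listed as overlapping an exon of a coding gene on the same strand. The 922 peaks lay on 553 transcripts with 533 names and faced 552 coding genes, with 865 peaks facing 1 gene and 57 facing 2. For 305 peaks (33.1%) the host was a noncoding transcript under the symbol of a coding gene, such as TYMS or STUB1, and not a named lncRNA. That share was 30.0% and 33.3% in the controls and 34.1% and 36.8% in the knockdown. The lists give a peak no strand of its own: its strand is that of the transcript it was assigned to, so the lists do not tell which of 2 overlapping transcripts was methylated.

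Peaks were short and mostly of modest fold. The median length was 325 bases, from 1 to 2173. The fold enrichments are the authors' own values, immunoprecipitated over input at the peak, and are used here to describe and rank peaks within lists. Their median was 6.3, with a range from 2.07 to 44800.4, and 700 peaks (75.9%) were under 10. The score, which is −10 times log10 of the peak's p, began at 50.05, and 91 peaks were under 60.

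The most common arrangement was head to head, with 422 peaks (45.8%), followed by tail to tail with 262 (28.4%) and a host wholly within its partner with 163 (17.7%). In the head-to-head pairs 60.7% of the peaks covered an annotated start of the coding partner and 79.9% lay within 500 bases of one. In tail-to-tail pairs 0.763% covered a partner start and the median distance from one was 21931 bases. The arrangements set much of this contrast: a head-to-head host spans the partner's start by definition, and a tail-to-tail host overlaps the partner from its end. For hosts within their partner 19.0% covered a partner start. Of all 922 peaks, 612 (66.4%) overlapped the partner's span at all. That share was 78.9% of 617 peaks on named lncRNAs and 41% of 305 on noncoding transcripts of coding genes. The start of the host itself was covered by 283 peaks (30.7%) and its end by 97 (10.5%).

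**Figure D2:**
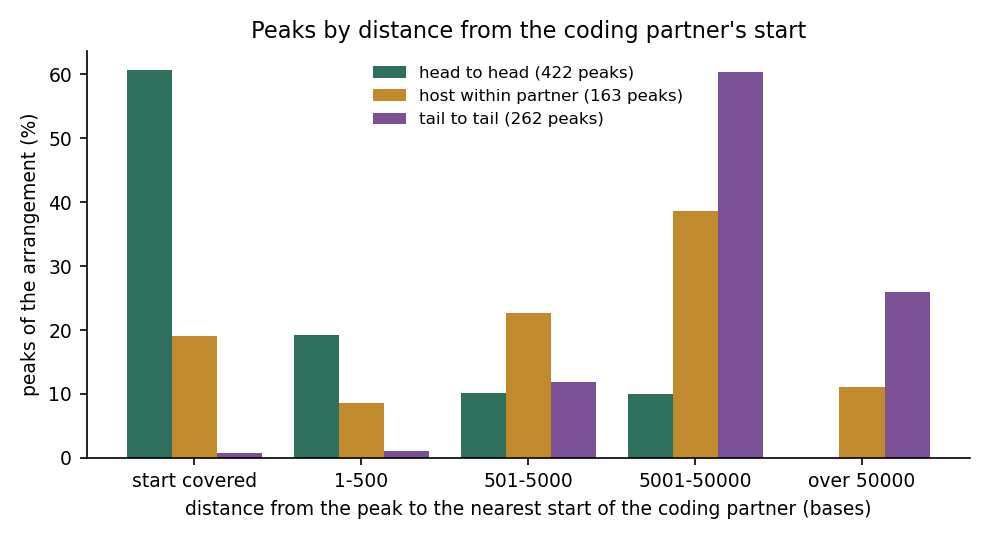
Distance in bases from each natural antisense peak to the nearest annotated start of its coding partner, as a percentage of the peaks of each arrangement. Of head-to-head peaks 60.7% cover the partner's start, and tail-to-tail peaks lie mostly over 5000 bases away. The definition of the arrangements sets much of this contrast.

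Natural antisense peaks lay on promoter windows more often than other lncRNA peaks in each sample. The classes are defined by where a transcript lies relative to a coding gene, so this definition sets part of the difference. How large that part is was not tested. Of all 922, 374 (40.6%) overlapped the RefSeq promoter window of some gene, and 253 (27.4%) that of the partner. By sample the share was 38.7% and 42.3% in the controls and 38.4% and 45.4% in the knockdown. For all other lncRNA peaks it was 15.3%, 16.7%, 14% and 18.5% in the same order. The difference was 25.1 percentage points, higher in 4 of 4 samples (exact sign-change permutation test, two-sided, p = 0.13, the smallest that 4 samples allow, and 0.15 adjusted over 24 comparisons of classes). The exon sense-overlapping, intergenic and bidirectional classes hold only peaks with no other relationship. Natural antisense holds every peak so listed, of which 333 were also exon sense-overlapping and 418 carried no other relationship. The promoter share of those 418 alone is not given. Exon sense-overlapping peaks ranged from 19.8% to 26.8% and intergenic peaks from 3.86% to 5.88%, both below natural antisense in 4 of 4 samples. Bidirectional transcripts, which start next to a coding gene and run away from it, ranged from 31.0% to 50%, with 2 of 4 samples on either side of the natural antisense share. Natural antisense peaks were also longer, with medians of 296.5 to 356 bases by sample against 264 to 294 for the other lncRNA peaks. Counting only peaks whose centre lay in a window, the share was 15.7% to 19.9% against 5.23% to 6.72%. Within the class, 55.9% of head-to-head peaks touched a window, 26.7% of tail-to-tail peaks and 17.8% of peaks on hosts within their partner.

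**Figure D3:**
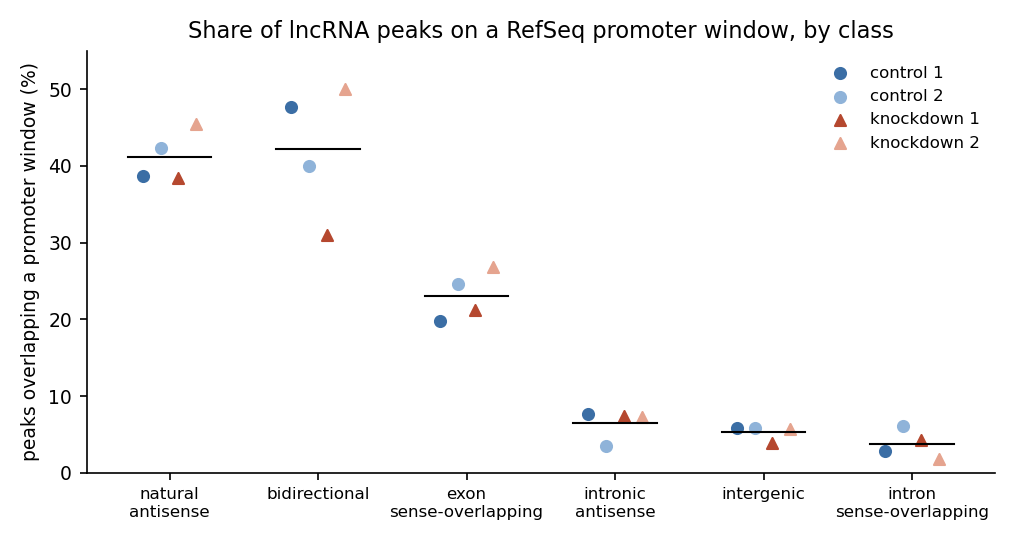
Percentage of lncRNA peaks that overlap a RefSeq promoter window, by class and sample, with circles for controls, triangles for knockdown and a line at the mean of the 4 samples. Natural antisense (38.4% to 45.4%) and bidirectional peaks (31.0% to 50%) lie above the other classes. The classes themselves are defined by position relative to coding genes. Natural antisense includes peaks that carry a further relationship, while the exon sense-overlapping, intergenic and bidirectional classes do not.

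Merging overlapping peaks on the same strand gave 590 regions. Of these, 38 (6.44%) were listed in all 4 samples, 59 in 3, 100 in 2 and 393 (66.6%) in 1. Among 4487 regions of the other lncRNA peaks 8.2% were listed in all 4. The 2 controls shared 103 regions, which is 34.3% of control 1 and 51.2% of control 2, and the 2 knockdown samples shared 72, which is 27.9% and 44.2% of theirs. Pairs of samples from different groups shared 74 to 89 regions. Regions listed in both controls and neither knockdown sample numbered 33 (5.59%), and the reverse 7 (1.19%), where the other lncRNA regions gave 5.73% and 2.07%. Restricted to peaks with no other relationship, 15 of 270 regions were in all 4 samples. Regions listed more often lay more often on a promoter window, 27.2% of those in 1 sample, 44.0% in 2, 59.3% in 3 and 55.3% in 4. These regions also differed in length, with medians of 289, 446, 372 and 552.5 bases.

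The highest folds of the class lay beside tRNA genes. Of 922 peaks, 22 had a fold over 100, and 20 of these lay within 1000 bases of a tRNA gene; no peak that close to a tRNA gene had a fold under 100. Among the other lncRNA peaks 95 of 179 with a fold over 100 lay that close, and 95 of the 147 near peaks had such a fold. The 20 peaks formed 7 regions. tRNA genes exist in many near-identical copies, and how reads that map to several places were treated is not given in the sources used here, so these regions are uncertain. Whether tRNA reads contribute to these folds was not tested.

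The 3 highest regions were all on AJ003147.2, a chromosome 16 transcript on the + strand that runs tail to tail with ZNF200, a zinc finger gene. The region at chr16:3188212-3188479 had folds of 23865.9 and 29535.9 in control 1 and 2 and of 44800.4 and 36462.9 in knockdown 1 and 2. It is the region whose first bases are printed above, and it lies 47 bases from TRP-TGG3-5. The region at chr16:3191329-3191337, only 9 bases long, had folds of 4692.64, 7062.15, 16960 and 7989.03 in the same order and lies 164 bases from the lysine tRNA gene TRK-CTT4-1. The region at chr16:3189749-3189798 had 2533.27, 4317.67, 280.03 and 5589.68 and lies 44 bases from TRP-AGG2-8. All 3 were listed in both knockdown samples, and the first was the highest of the class in every sample. None overlapped the span of ZNF200, which was at 28.5, 27.8, 28.7 and 26.5 CPM in the inputs. The transcript AJ003147.2 had no count row.

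The other tRNA-side regions were listed in fewer samples. A 1-base peak at the end of AC078802.1, antisense to the actin-related gene ACTRT3, had folds of 1592.59 and 1345.37 in the controls and 1015.84 in knockdown 1, at 187 bases from TRV-AAC1-1. AP001107.9, antisense to the nucleoside transporter gene SLC29A2, had 854.33 in control 2 and 745.87 and 789.67 in the knockdown samples, at 50 bases from TRS-GCT3-1. Only knockdown 2 listed the noncoding MAP1LC3B transcript facing FBXO31 (341.75), whose peak overlaps TRM-CAT6-1, and the noncoding AGBL5 transcript facing OST4 (181).

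Away from tRNA genes the highest region in all 4 samples was chr19:8444799-8445597 on AC136469.2, which faces HNRNPM, a splicing regulator, head to head. Its folds were 341.15, 115.17, 47.06 and 75.87 in control 1, control 2, knockdown 1 and knockdown 2. The noncoding TYMS transcript that runs tail to tail with ENOSF1, long known as the antisense neighbour of thymidylate synthase, held a 32-base region at chr18:667721-667752 with folds of 64.61, 95.63, 29.83 and 26.52. AC008894.3, which lies inside TPM4, a tropomyosin gene, had 84.95, 73.46, 21.66 and 24.80 at chr19:16076145-16077395. These folds come from lists called separately per sample, so no test of a change is made of them.

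The remaining regions of the top 10 included 4 hosts head to head with their partners. AL024507.2, opposite the translocon gene SEC63, had folds of 33.60, 26.70, 39.37 and 35.55. AL121987.2, opposite PEA15, an adaptor of ERK and death receptor signalling, had 28.99, 20.84, 49.50 and 25.89. AL121603.2, opposite the chromatin remodeller BAZ1A, had 33.69, 35.46, 16.39 and 12.43. AP000347.1, opposite RGL4, had 27.63, 34.27, 8.31 and 21.43. The first 3 of these regions covered the start of the partner, and the RGL4 region did not reach its partner. The folds of the other regions in all 4 samples fell away from there, and 25 of the 38 had a mean under 15. The ARHGEF5 and ARHGEF35 regions, among the lowest of the 38, lie on near-identical copies and are uncertain.

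**Figure D4:**
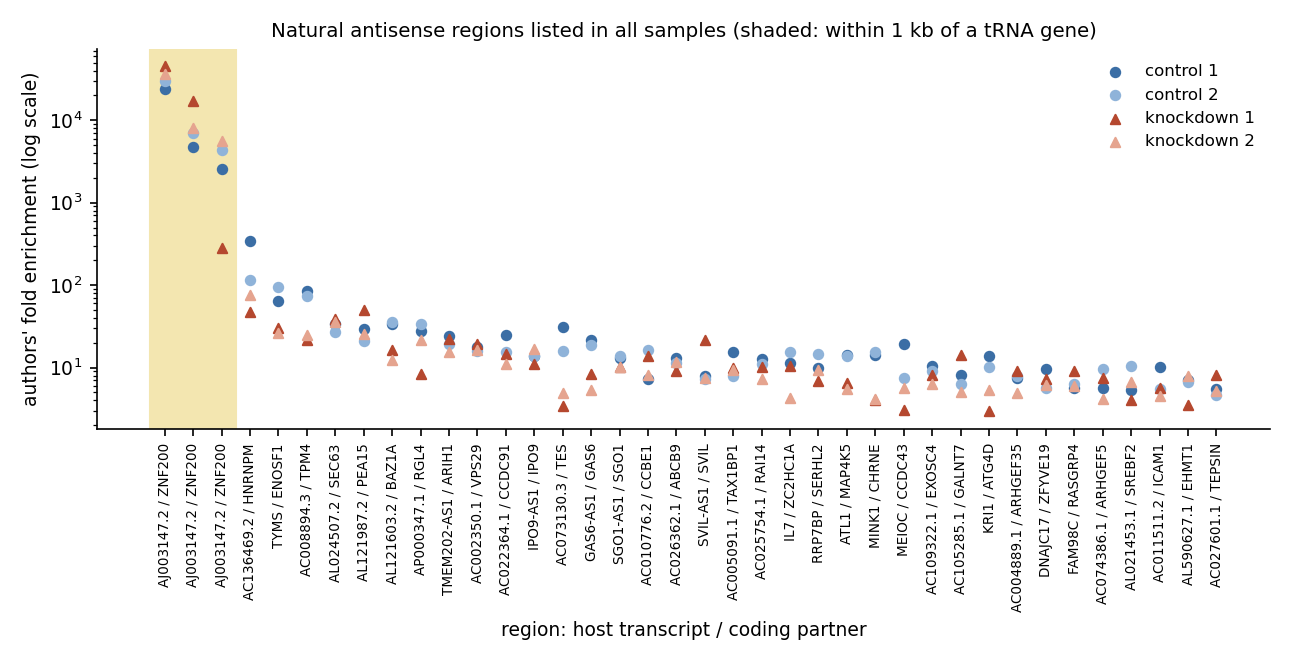
The authors' fold enrichment (log axis) of the 38 natural antisense regions listed in all 4 samples, ordered by mean, with circles for controls and triangles for knockdown. The 3 shaded regions, within 1 kb of a tRNA gene, lie between 280.03 and 44800.4, and the next, AC136469.2 facing HNRNPM, between 47.06 and 341.15.

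Some regions were listed in both samples of 1 group and in neither of the other. Those of highest mean fold in the controls were GCC2-AS1 facing the golgin gene GCC2 (22.57 and 16.30), the noncoding TMEM120B transcript facing the small GTPase gene RHOF (20.07 and 13.53) and ASMTL-AS1 inside ASMTL (16.94 and 16.48). In the knockdown they were the noncoding STUB1 transcript facing JMJD8 (37.32 and 17.59), the noncoding ANO8 transcript facing DDA1 (11.33 and 15.88) and the noncoding CLSTN1 transcript facing PIK3CD (11.27 and 7.34). The STUB1 and ANO8 sites were not limited to the knockdown: control 1 listed a peak there in its mRNA list, under STUB1 (36.56), and control 2 one under ANO8 (10.47).

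Other sites also moved between the lists. No natural antisense peak overlapped an mRNA peak of its own sample, and neither did any of the 8011 lncRNA peaks. The 2 lists of a sample thus shared no base, as they would if each peak had been given to 1 list only; how peaks were assigned is not stated. Against the mRNA lists of the other samples 62 peaks (6.72%) in 42 regions did overlap, 17 of them under the host's symbol and 42 under the partner's. At chromosome 3, control 1 listed 48440403 to 48441034 on the + strand, on a noncoding transcript of the translation-associated gene TMA7 (54.01). Control 2 and knockdown 2 listed the overlapping stretch from 48440352 on the − strand, on AC134772.1, whose partner is TMA7 (40.26 and 25.84). It was the only place in the class listed on both strands. Counting a peak of any list at a region, 54 regions were present in all 4 samples, 34 in both controls only and 6 in both knockdown samples only.

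Of 54 names looked up, mostly of well-known antisense lncRNAs, 5 carried a natural antisense peak, and 45 had a row in the count table. The list was not purely antisense lncRNAs: WRAP53, for example, is also a coding partner in this class. The share of all natural antisense lncRNAs that carry a peak is not given. AFAP1-AS1, tail to tail with the actin-binding gene AFAP1, had 4.82 and 6.70 in the controls and none in the knockdown. The mRNA list gave AFAP1 its own peak in knockdown 1 (3.99) and knockdown 2 (5.12) and not in the controls, so the 2 partners were listed in opposite groups. This is 1 of 343 pairs of a region and a partner with its own peak, and its folds are low. How many other pairs were listed in this way is not given. HOXA-AS3, in the homeobox cluster, had a region by HOXA6 and HOXA7 in both controls (13.61 and 7.70) and another by HOXA4 in knockdown 1 (4.19). MKLN1-AS was listed in control 1 (3.78) and knockdown 2 (4.20), ST7-AS1 in control 1 (5.35) and ASH1L-AS1 in knockdown 2 (3.82). None had a fold over 13.61, and none was listed in all 4 samples.

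For a minority of natural antisense peaks the coding partner had an m1A peak of its own in the mRNA list of the same sample. Counted by gene, the mean share over the samples was close to that of genes whose antisense transcript carried no peak. The 2 lists of a sample shared no base, so a partner's peak at the place of the antisense peak could not be counted. How far, if at all, this lowered the share of the partners was not tested. A partner peak was listed for 110 of 300 natural antisense peaks (36.7%) in control 1, 49 of 201 (24.4%) in control 2, 82 of 258 (31.8%) in knockdown 1 and 26 of 163 (16%) in knockdown 2. The knockdown mean was 6.66 percentage points lower, within the spread (two-sided exact permutation test, p = 0.667), and without knockdown 2 it was 1.26 points higher. Between same-numbered samples the knockdown share was 0.867 and 0.654 times the control share. Over all measured coding genes, counted by gene and not by peak, the share with a peak was 28.8%, 20.4%, 25.8% and 18.5% in the same order. Counted by gene, 26.5% ± 9.0 (SD, n = 4) of partners had a peak. Coding genes whose natural antisense transcript carried no peak gave 26.7% ± 5.27 (SD, n = 4). The partners were higher in 2 of 4 samples (exact sign-change permutation test, two-sided, p = 1). Against all measured genes the partners were 3.17 points higher, in 3 of 4 samples (exact sign-change permutation test, p = 0.375). The levels of these sets differed too: the median was 24.3 to 36.3 CPM for partners, 29.7 to 30.5 for genes whose antisense transcript had no peak and 17.0 to 17.9 for all measured genes.

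Where both partners had a peak in a sample, the median gap between them was 9755 bases, and in 30 of the 267 cases it was at most 1000 bases. Since the 2 lists of a sample share no base, an overlapping pair could not have been seen. In 5 pairs the region and the partner's own peak were listed in all 4 samples. HNRNPM had folds of 19.37, 15.19, 4.34 and 4.46 at its own peak, 9808 bases from the region on AC136469.2. TPM4 had 60.40, 74.55, 16.84 and 19.45 at its own, 4328 bases from the region on AC008894.3. The others were SVIL with SVIL-AS1, EHMT1, a histone methyltransferase gene, with AL590627.1, and ZC2HC1A with the noncoding IL7 transcript.

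In the inputs no host or partner passed the test for a change with the knockdown. Of the 553 host transcripts 413 had a count row and 210 passed the filter on low counts; 111 of the 413 had under 10 counts in all 4 libraries together. None of the 210 had an adjusted p under 0.05 (edgeR quasi-likelihood test, Benjamini-Hochberg over all 22803 lncRNA transcripts tested, of which 0.0219% passed), and none did with DESeq2 (0.0175% of all transcripts). At an unadjusted p under 0.05 there were 17 (8.10%), 12 higher and 5 lower, where 4.55% of all transcripts tested were below it, 2.35% higher and 2.19% lower. The median log2 fold change was 0.00 for hosts, as for all transcripts. Of 552 partners 532 had a count row and 485 were tested. With edgeR 0 had an adjusted p under 0.05 (0.0374% of all 13362 genes tested) and with DESeq2 1 did (0.18% of all genes). At an unadjusted p under 0.05 there were 14 (2.89%), 6 higher and 8 lower, where 3.3% of all genes were below it, 1.72% higher and 1.58% lower. Their median was −0.01 against 0.00 for all genes.

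**Figure D5:**
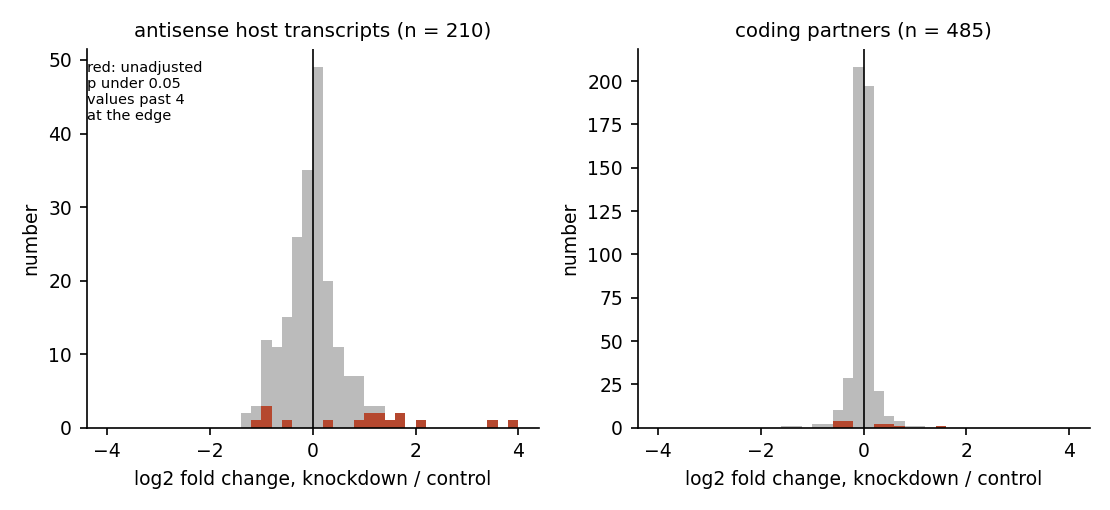
Log2 fold change in the inputs, knockdown over control, of the 210 tested antisense host transcripts and the 485 tested coding partners, with those at an unadjusted p under 0.05 in red. Both sets centre on 0, and hosts spread more widely than partners. Hosts with a count row also had far fewer counts, with a median of 8 in an input against 914 for partners. Whether counting error accounts for the wider spread was not tested.

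The partner with the lowest p was TNFAIP3, which encodes A20, a brake on NF-kappa-B signalling. It was at 235 and 207 CPM in the controls and 292 and 366 in the knockdown. Its log2 fold change was 0.57 ± 0.11 (SE), with an adjusted p of 0.725 in edgeR and of 0.000529 in DESeq2, and from 5.83e-05 to 0.999 over all alternatives. Its antisense transcript AL357060.1, head to head with it, carried a peak in both controls (8.09 and 10.13) and in neither knockdown sample. That transcript had 6 and 11 counts in the controls and 21 and 11 in the knockdown. The next partners by p did not pass either. CELF4, an RNA-binding protein gene, was at 0.742 and 1.30 CPM against 2.58 and 3.04. LRP8, a lipoprotein receptor gene, was at 56.0 and 50.3 against 44.8 and 38.0, EEF1D, an elongation factor subunit gene, at 7.49 and 9.92 against 18.3 and 11.4, and SERPINB8 at 23.4 and 25.6 against 33.1 and 29.8. In TNFAIP3 and in each of these 4 the groups did not overlap. These genes were picked for their low p in the same data, so this adds no support. The share of all genes without overlap is not given.

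Among the hosts BTG3-AS1 had the lowest p. It had 0 counts in both controls and 11 and 10 in the knockdown. Against a floor of 3 counts over the controls this is 6.51-fold higher per lncRNA count (adjusted p = 0.774, edgeR). The floor allows for counting error in the controls only. Its peak was listed in knockdown 2 (4.43), one of the samples with counts. AC093677.2, opposite MTHFD2L, a folate enzyme gene, had 1 and 1 counts against 17 and 12, a ratio of 13.5 with an exact 95% counting interval of 3.41 to 117 that covers counting error only (adjusted p = 1.00, edgeR). Its peak was in control 1 (7.0), the group with fewer counts. BTG3-AS1 and AC093677.2 passed the filter on low counts only through the knockdown inputs. Their place among the tested hosts thus rests on the group where they are high. TMEM202-AS1, opposite the ubiquitin ligase gene ARIH1 and printed above, had 48 and 69 counts against 38 and 22, with a log2 fold change of −1.07 ± 0.37 (SE). Its region was listed in all 4 samples (24.45, 19.07, 22.00 and 15.45). NDUFB2-AS1 (2 and 13 counts against 34 and 21) and the noncoding DNAJC17 transcript (2 and 8 against 15 and 28) also had peaks in all 4 samples, although the NDUFB2-AS1 peak of knockdown 1 lay beside the other 3. The DNAJC17 transcript, too, entered the test only through the knockdown inputs.

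The ratio of host to partner counts was similar in the 4 inputs. In the 423 pairs with counts of both, the median log2 ratio of host to partner counts was −6.81 and −6.75 in the controls and −6.78 and −6.84 in the knockdown. These ratios are not per length and serve only to set libraries side by side. Of 192 pairs tested on both sides, host and partner were both higher in 47, both lower in 46, and moved in opposite directions in 57 and 42. The kits named in the labels keep strand, but whether the counts used it is not given, and without strand the reads of 2 overlapping partners cannot be told apart. Of 27 host transcripts of the 38 regions that had a count row, the median total over the 4 inputs was 69 counts.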

How the data were processed

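Peaks and counts of 5637 cells were analysed as the authors deposited them: 1 list of lncRNA peaks and 1 of mRNA peaks for each of 4 samples, and raw counts of the 4 inputs. Per the submitters' processing notes, HISAT2 2.0.4, HTSeq 0.9.1, STAR, edgeR and the hg38 build were used; the sources used here name neither their roles, nor the peak caller, nor the strand setting. Per the labels' protocols, RNA was rRNA-depleted and immunoprecipitated with an m1A antibody kit. Peak fold enrichment and score (−10 times log10 of p) are the authors' values, and a peak was called in each sample separately, per the file headers. The counts are raw counts deposited by the authors, by gene in the mRNA table and by transcript in the lncRNA table; 8 normalized columns were not used.

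The members, gene lists and named genes were chosen with earlier results of these data known. Named are the 10 regions of highest mean fold listed in all 4 samples, the 3 of highest fold in each single group, known antisense lncRNAs with a peak, and, as none passed an adjusted p of 0.05, the 5 hosts and 5 partners of lowest p; a rule for partner peaks overlapping a region had no member. TNFAIP3's antisense region, the TMA7 place, the tRNA-side regions and the 5 pairs with peaks of both partners were chosen after their values were seen. Peaks on the same strand overlapping by at least 1 base were merged. Differences in counts were fitted with edgeR 4.0.16 under R 4.3.3 (TMM, a minimum count of 10, quasi-likelihood test, Benjamini-Hochberg over the whole table), with DESeq2 1.42.0 as an alternative, and the code was tested on simulated data. CPM values are counts of the inputs over edgeR's effective library size. Peak counts and shares were compared with exact permutation tests over samples. Promoter windows and tRNA genes came from RefSeq tables of GRCh38.p14, whose coordinates are those of hg38; 18 promoter windows of the regions in all 4 samples were read. The sources gave no read depth for immunoprecipitated libraries, so no interval is given for peaks. Same-numbered inputs did not deviate together (correlations of 0.05 for mRNA and 0.02 for lncRNA), so replicate numbers were not treated as pairs in the count tests. That check does not cover the peak lists. There the first replicate exceeded the second in both groups, 1.49 and 1.58 times in peak number and 1.50 and 1.99 times in the partner-peak share. The main tests of peaks took no account of this, and a replicate block was run as an alternative.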

Additional observations from a re-analysis of the deposited data

How the results depend on the processing

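A stricter score (at least 100) or fold (at least 4), unique positions, the share of all lncRNA peaks and peaks with no other relationship all left the ratio of natural antisense peak numbers below 1, from 0.817 to 0.972. Leaving out 1 sample gave 0.651 to 1.05, turning to 1.05 without control 1 and 1.03 without knockdown 2. The share of peaks whose partner has its own peak differed by −14.6 to 1.26 percentage points when 1 sample was left out, turning to 1.26 without knockdown 2. Regions in all 4 samples numbered 26 to 54 under 5 alternatives, against 38, and 15 with peaks of no other relationship, which holds fewer peaks. With the replicate block the ratio stayed 0.840 (exact permutation test, p = 0.5, the smallest that 2 pairs allow), and 0 hosts and 0 partners were called. The block changed no call of a host or partner. Over all features tested, calls rose from 5 to 22 lncRNA transcripts and from 5 to 15 coding genes. Hosts called were 0 under every alternative run. Partners called rose from 0 to 1 with DESeq2, to 1 with no filter on low counts, and from 0 to 5 when 1 input was left out, with 5 without knockdown 1 (of 135 genes called in all) and 1 without knockdown 2; the lone sample of a group is then assumed to vary like the others. TNFAIP3 was called with DESeq2, with no filter and without knockdown 1, and EEF1D without knockdown 2. The overlap with mRNA peaks of the same sample was 0 for every class of lncRNA peak, so no alternative could change it and its 0 says nothing about stability. The alternatives by strand, by any list, by share and by no other relationship, the promoter comparison and the motif search were chosen after seeing the data; the motif search in genome windows was not run. Depth limits the hosts, 111 of which had under 10 counts in all, and with 2 samples a group no permutation test of a group difference can go below 0.333.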
